A study of Mus musculus with 24 samples.

Results

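The RNA of sorted heart muscle cells was searched for transcripts that mark other cells of the heart. The 36 marker genes were looked up by symbol in a table of 23337 genes. They comprise 12 endothelial markers (Pecam1, Cdh5, Tek, Vwf, Kdr, Flt1, Tie1, Emcn, Eng, Esam, Cldn5 and Egfl7) and 8 fibroblast markers (Dcn, Dpt, Pdgfra, Ddr2, Lum, Tcf21, Gsn and Postn). The others are 7 pericyte markers (Rgs5, Pdgfrb, Cspg4, Vtn, Kcnj8, Abcc9 and Notch3) and 9 macrophage or leukocyte markers (C1qa, C1qb, C1qc, Csf1r, Cd68, Lyz2, Ptprc, Tyrobp and Ctss). All 36 were present in the table, and 32 had enough reads for a test. Tcf21, Ptprc, Tyrobp and Ctss did not.

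The study asked what heart muscle cells lose when Myocd, Mrtfa and Mrtfb are targeted, which encode coactivators of serum response factor. The 24 libraries fall into 4 groups of 6, all from mice injected with adeno-associated virus (AAV) on postnatal day 1 and studied at 4 weeks of age. Ctrl mice had the genotype Rosa-Cas9/Cas9 and received AAV-Cre. MKO mice had that genotype and received AAV-Myocd-sgRNA, a virus with a guide RNA to Myocd. DKO mice, Mrfta-/-; Mrtfb-F/F; Rosa-Cas9/Cas9 animals, received AAV-Cre, and TKO mice had the DKO genotype and received AAV-Myocd-sgRNA. The Cas9 allele is therefore carried in all 4 groups, Ctrl included, and whether Cas9 was made in the sorted cells was not tested. The null Mrtfa allele is carried by every cell of a DKO or TKO mouse and not by heart muscle alone. The sources used here give neither the promoter of either virus, and so the cells in which Cre or the guide RNA was active, nor the sorting gate. Whether each library is a different mouse is not stated, and p-values then describe the spread of these libraries alone, which may be technical.

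Endothelial cells line the blood vessels and the chambers of the heart, and pericytes wrap the capillaries and depend on platelet-derived growth factor signalling through Pdgfrb. Fibroblasts make the collagen and proteoglycan matrix between muscle fibres, and resident macrophages clear debris and make complement protein C1q. Heart muscle cells fill most of the heart's volume but are outnumbered by these other cells. A dissociated and sorted preparation of them can hold some of the others, or RNA released from them. In bulk libraries, fewer cells of a type and less RNA per cell cannot be told apart. Some markers are also made by heart muscle: Abcc9 encodes SUR2, a regulatory subunit of the ATP-sensitive potassium channel of heart muscle and of vascular mural cells, and Gsn encodes gelsolin, an actin-severing protein made by many cell types.

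Promoters of 26 of the 36 genes were taken from RefSeq (GRCm38.p6) as the 250 bases before a transcription start. Short motifs were searched on both strands in the 32 promoters of these genes. The search left out promoters on the chromosome that carries Pdgfrb and Csf1r, so these genes are in none of the counts. GGAAGT is a core recognised by transcription factors of the ETS family, which act in endothelial and myeloid cells. It was present in 13 of 32 promoters (40.6%), against 19.7% of the 32851 promoters of the same length that were searched. It was present in 6 of 10 endothelial promoters and in 5 of 7 macrophage or leukocyte promoters (71.4%), in 2 of 9 fibroblast promoters and in 0 of 6 pericyte promoters. The CArG box, the element bound by serum response factor, was present in 0 of 32 promoters, against 1.47% of the 32851 searched. A longer motif that contains GGAAGT was also searched at first and then left out. The promoters of 2 endothelial receptors and of 2 C1q chains are printed because these classes held the motif most often, and they were chosen after the matches were seen. Each is written 5′ to 3′ on the gene's own strand and ends at the base before the start site. Capitals mark ACTTCC, which is GGAAGT read from the other strand.
Kdr (chr5:75978456-75978705, minus strand): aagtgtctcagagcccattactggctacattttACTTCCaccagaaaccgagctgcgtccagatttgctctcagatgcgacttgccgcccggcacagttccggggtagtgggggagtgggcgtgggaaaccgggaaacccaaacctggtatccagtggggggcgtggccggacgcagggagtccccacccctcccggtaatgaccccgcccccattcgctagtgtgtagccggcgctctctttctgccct
Tie1 (chr4:118489850-118490099, minus strand): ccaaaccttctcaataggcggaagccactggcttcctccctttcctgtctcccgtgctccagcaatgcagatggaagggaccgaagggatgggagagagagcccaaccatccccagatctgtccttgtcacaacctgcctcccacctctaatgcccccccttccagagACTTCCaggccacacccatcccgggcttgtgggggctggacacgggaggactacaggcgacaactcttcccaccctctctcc
C1qb (chr4:136886201-136886450, minus strand): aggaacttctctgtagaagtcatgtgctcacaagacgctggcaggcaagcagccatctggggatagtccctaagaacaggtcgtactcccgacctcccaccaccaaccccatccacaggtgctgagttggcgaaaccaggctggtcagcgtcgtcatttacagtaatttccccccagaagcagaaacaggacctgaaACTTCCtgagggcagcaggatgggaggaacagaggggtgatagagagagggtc
C1qc (chr4:136892915-136893164, minus strand): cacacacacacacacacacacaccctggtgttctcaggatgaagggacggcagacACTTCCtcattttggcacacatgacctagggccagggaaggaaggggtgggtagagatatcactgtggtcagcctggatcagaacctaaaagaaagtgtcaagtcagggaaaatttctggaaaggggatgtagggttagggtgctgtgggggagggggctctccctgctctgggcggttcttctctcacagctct

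Heart muscle markers were abundant in every library, as the label gives. Total counts ran from 5830185 in DKO 1 to 17184517 in TKO 3, and levels are given as CPM, read counts scaled to the size of the library. The 14 heart muscle markers summed to 146999 to 183123 CPM in Ctrl and to 114446 to 142303 CPM in TKO. Mrtfa, listed as Mkl1, spanned 4.81 to 11.3 CPM in Ctrl and 1.33 to 2.66 CPM in TKO. Mrtfb, found under the symbol Mkl2, was reduced less. Ctrl libraries held 44.8 to 55.9 CPM of it, TKO libraries 27.5 to 42.5 and DKO libraries 26.6 to 39.3. Against Ctrl, edgeR gave Mrtfb -0.46 for TKO (log2, adjusted p = 0.0041) and -0.57 for DKO (adjusted p = 0.00603). The values for Mrtfa were -1.86 and -1.92. Whether the Mrtfb allele was deleted in the sorted cells was not tested. Myocd spanned 153 to 234 CPM in Ctrl, 120 to 187 CPM in MKO and 175 to 323 CPM in TKO, with a log2 ratio of -0.37 in MKO against Ctrl (adjusted p = 0.717) and of 0.40 in TKO against Ctrl (adjusted p = 0.0437). Class sums, shares of them and ratios between genes use CPM without length scaling, so long genes weigh more there. Other comparisons of level between genes are made per kilobase of exon. On that scale the median endothelial marker stood at 0.388% of the median heart muscle marker in the middle Ctrl library, with 0.111% in the lowest and 1.44% in the highest. The corresponding medians in Ctrl were 0.183% for pericyte markers, 0.0549% for fibroblast markers and 0.0202% for macrophage or leukocyte markers. Neutrophil, lymphocyte and adipocyte lists had 0 genes with enough reads for a test. The globin genes Hba-a1, Hba-a2 and Hbb-b1 had 0 reads in every library. How reads that map to several genes were treated is not stated, so this 0 cannot show that red cell RNA was absent. Hbb-bs and Hbb-bt did not match by symbol, and Alas2 of the erythroid list was tested, at 0 to 3.58 CPM.

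Marker levels varied widely between libraries of one group. The endothelial markers summed to 1505 CPM in Ctrl 2 and to 142 CPM in Ctrl 3, a 10.6-fold range within the control group. Ctrl 2 was the highest of all 24 libraries for 11 of the 12 endothelial markers, and Ctrl 3 was the lowest of the 6 Ctrl libraries for all 12. MKO 2 was the highest MKO library for 27 of the 32 tested markers, DKO 1 the lowest DKO library for 25, and TKO 6 the lowest TKO library for 20. The heat map of all tested markers shows each library against the mean of the gene.

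**Figure D1:**
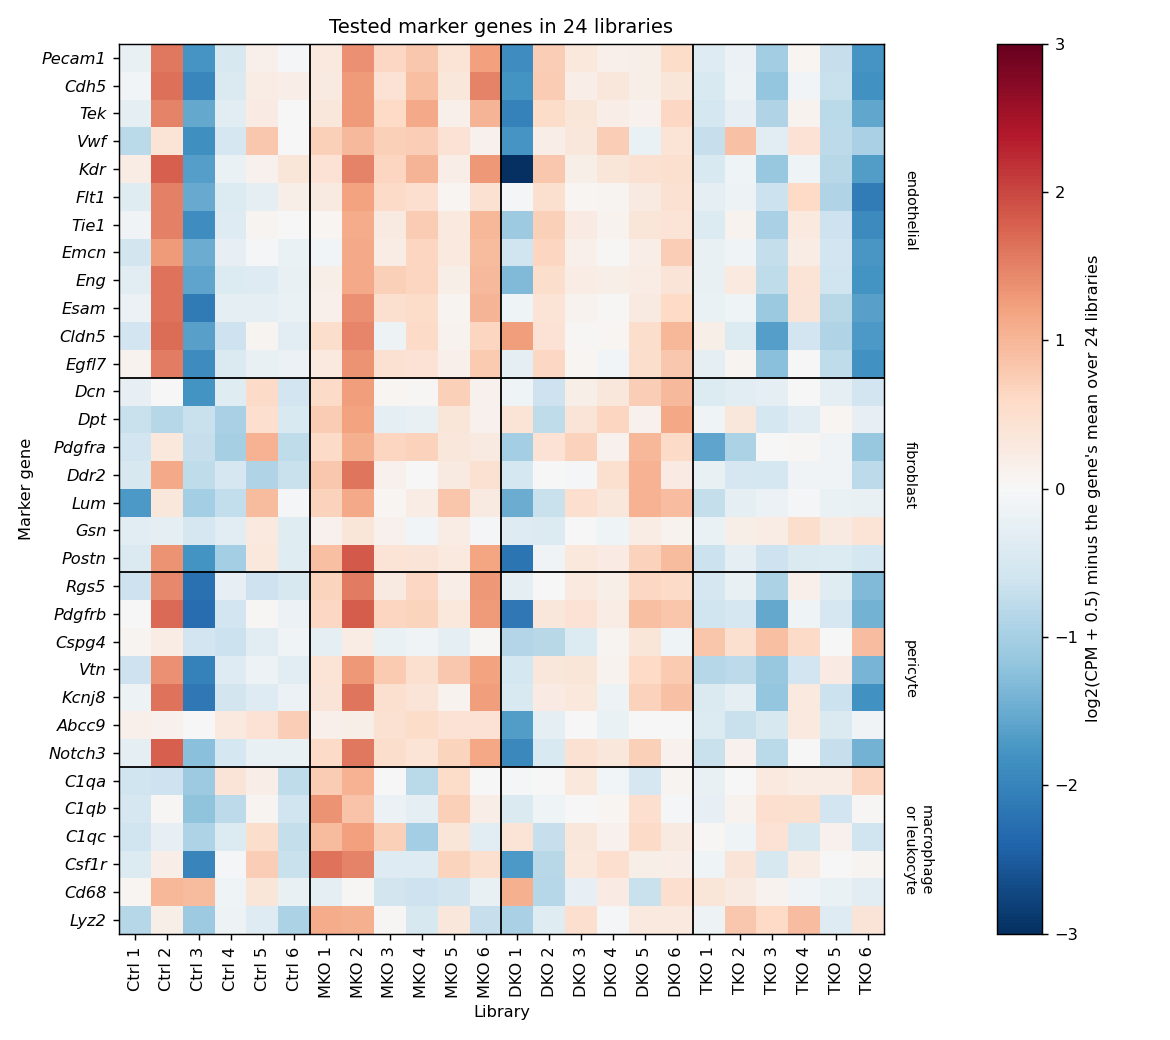
Each row is a tested marker, grouped by cell class, and each column a library. Colour gives log2(CPM + 0.5) minus that gene's mean over the 24 libraries, with the scale ending at 3 on either side. Ctrl 2 and MKO 2 are red and Ctrl 3, DKO 1 and TKO 6 blue over most endothelial and pericyte rows, with exceptions such as Cldn5 in DKO 1 and Cspg4 in TKO 6.

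Some pairs of markers kept their proportion while their level varied. Kdr and Pecam1, the main vascular endothelial growth factor (VEGF) receptor of endothelium and an endothelial junction adhesion molecule, stood in a ratio of reads between 1.41 and 2.23 in 23 libraries. Over the same libraries Pecam1 ranged from 18.3 to 194 CPM. In DKO 1 the ratio was 0.460. The ratio of Cspg4 to Pdgfrb, both used as pericyte markers, was not stable: its range was 1.91 to 7.42 in TKO, against 0.475 to 4.55 in Ctrl, 0.583 to 3.31 in DKO and 0.439 to 0.872 in MKO.

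DKO 1, the shallowest library, held fewer reads from long genes than the other DKO libraries. Its deviation from the other DKO libraries fell with exonic length over all 12281 tested genes (Spearman's rho of -0.573 across genes, which are not independent replicates), against -0.294 to 0.405 in the other 23 libraries. Tested genes under 2 kb had a median log2 deviation of 0.67 and genes over 4 kb of -0.72. Among the markers, the 12 under 2 kb had a median of -0.415 and the 10 over 4 kb a median of -1.88. Kdr, with 5451 exonic bases, stood at 7.99 CPM in DKO 1, below all other libraries. Cldn5, with 1416 exonic bases, stood at 35.2 CPM in the same library, the highest DKO value. Flt1 went against the pattern: its 6280 exonic bases came with a deviation of only -0.33. Ctrl 3 showed a weaker relation with length over all genes (-0.238), and its markers under and over these lengths had like medians of -1.005 and -1.146.

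**Figure D2:**
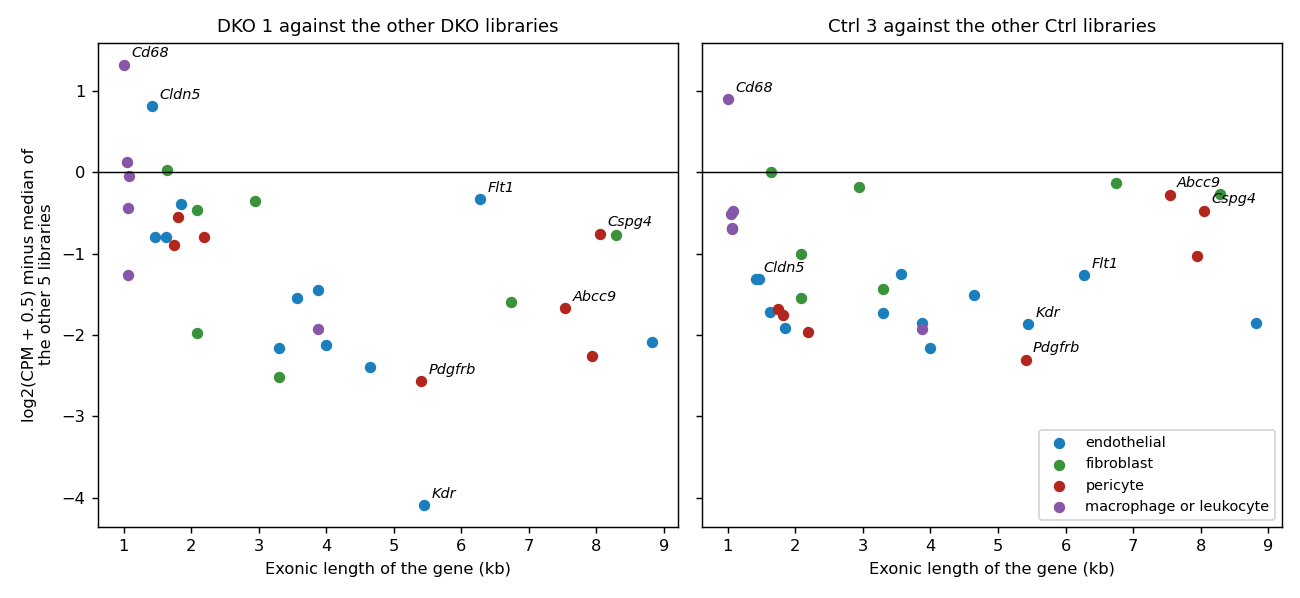
Each point is a tested marker, coloured by class. The x axis gives its exonic length in kilobases and the y axis log2(CPM + 0.5) in one library minus the median of the other 5 libraries of its group. In DKO 1 (left) long markers lie lower than short ones, with Kdr near -4.09 and Cldn5 near 0.81; in Ctrl 3 (right) most endothelial and pericyte markers lie low at every length.

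Before the gene groups, the counts of calls are given. A marker was called at an adjusted p under 0.05 in edgeR's quasi-likelihood test, adjusted over all 12281 genes. MKO against Ctrl called 0 of 32 markers, where 0% of all genes were called. An unadjusted p under 0.05 was found for 13 markers and for 6.2% of all genes. DESeq2 and limma voom also called 0. DKO against Ctrl called 0 (0.635% of all genes) with 3 at an unadjusted p under 0.05 (10.5% of all genes). DESeq2 called 0 and limma voom 1, which was lower (1.58% of all genes). The 6 DKO and 6 Ctrl libraries did not overlap for 1 marker, Abcc9, lower in DKO, against 0.603% of all genes. DKO against MKO called 0 (0.79% of all genes) with 1 at an unadjusted p under 0.05 (15.3% of all genes). DESeq2 called 0 and limma voom 1, which was lower (1.97% of all genes). Abcc9 was again the one marker without overlap, lower in DKO, against 1% of all genes.

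TKO against Ctrl called 2 markers, Gsn and Cspg4, both higher, against 8.14% of all genes called higher, 5.98% called lower and 14.1% in either direction. With 22 libraries, leaving out Ctrl 3 and DKO 1, the count was 8, with 2 higher and 6 lower (Pecam1, Cdh5, Tek, Kdr, Pdgfrb and Abcc9), where 21.3% of all genes were called and 10.3% were called lower. It was 5 without DKO 1 alone, where 22.7% of all genes were called. TKO against DKO called 1 marker, Cspg4, higher, against 4.16% of all genes called higher and 6.38% in either direction. The count was 6 with 22 libraries, of which 5 were lower (10% of all genes called, 3.53% lower), and 3 without Ctrl 2 (6.91%). It was 2 when 1 of Ctrl 3, DKO 1, TKO 1 or TKO 5 was left out at a time (6.14%, 8.9%, 5.14% and 5.12%).

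TKO against MKO held most of the calls, 16 of 32: 15 markers fell, against 6.86% of all genes called lower, and Cspg4 rose, against 6.48% called higher and 13.3% in either direction. The 6 TKO and 6 MKO libraries did not overlap for 14 markers, all lower in TKO, against 5.06% of all genes lower without overlap. Counts depended on single libraries: the total was 6 without MKO 2, MKO 6 or TKO 6 (10.1%, 9.58% and 10.2% of all genes), 7 without TKO 3 (10.5%), 9 without TKO 1 (10.9%) and 10 without TKO 5 (10.6%). Without MKO 2, 5 markers were lower, where 4.56% of all genes were called lower. Tek, Pdgfrb, Vtn and Cspg4 were called with each of the 24 libraries left out in turn.

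The interaction asks whether the step from DKO to TKO differed from the step from Ctrl to MKO. It called 0 of 32 markers (0.464% of all genes, 0.0651% lower), with 21 at an unadjusted p under 0.05 (12.4% of all genes) and a lowest adjusted p of 0.1004. DESeq2 called 2, all lower, where 0.482% of all genes were lower, and limma voom 19, all lower, where 4.23% were. Without Ctrl 2 edgeR called 18, all lower, where 3.84% of all genes were called lower, and it called 2 without DKO 1 (0.526% lower) and 1 without Ctrl 5 or TKO 5 (0.0323% and 0.0647% lower).

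The authors' deposited tables call more markers at an adjusted p under 0.05. In TKO against DKO the authors' deposited table has 16 markers lower and 1 higher, against 5.23% of its genes lower and 6.24% higher. For TKO against MKO the authors' deposited table has 22 lower and 1 higher, against 10.9% lower and 9.92% higher. In TKO against Ctrl the authors' deposited table has 3 higher (Gsn, Cspg4 and Lyz2) and 2 lower (Kdr and Abcc9), against 8.34% higher and 7.42% lower.

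**Figure D3:**
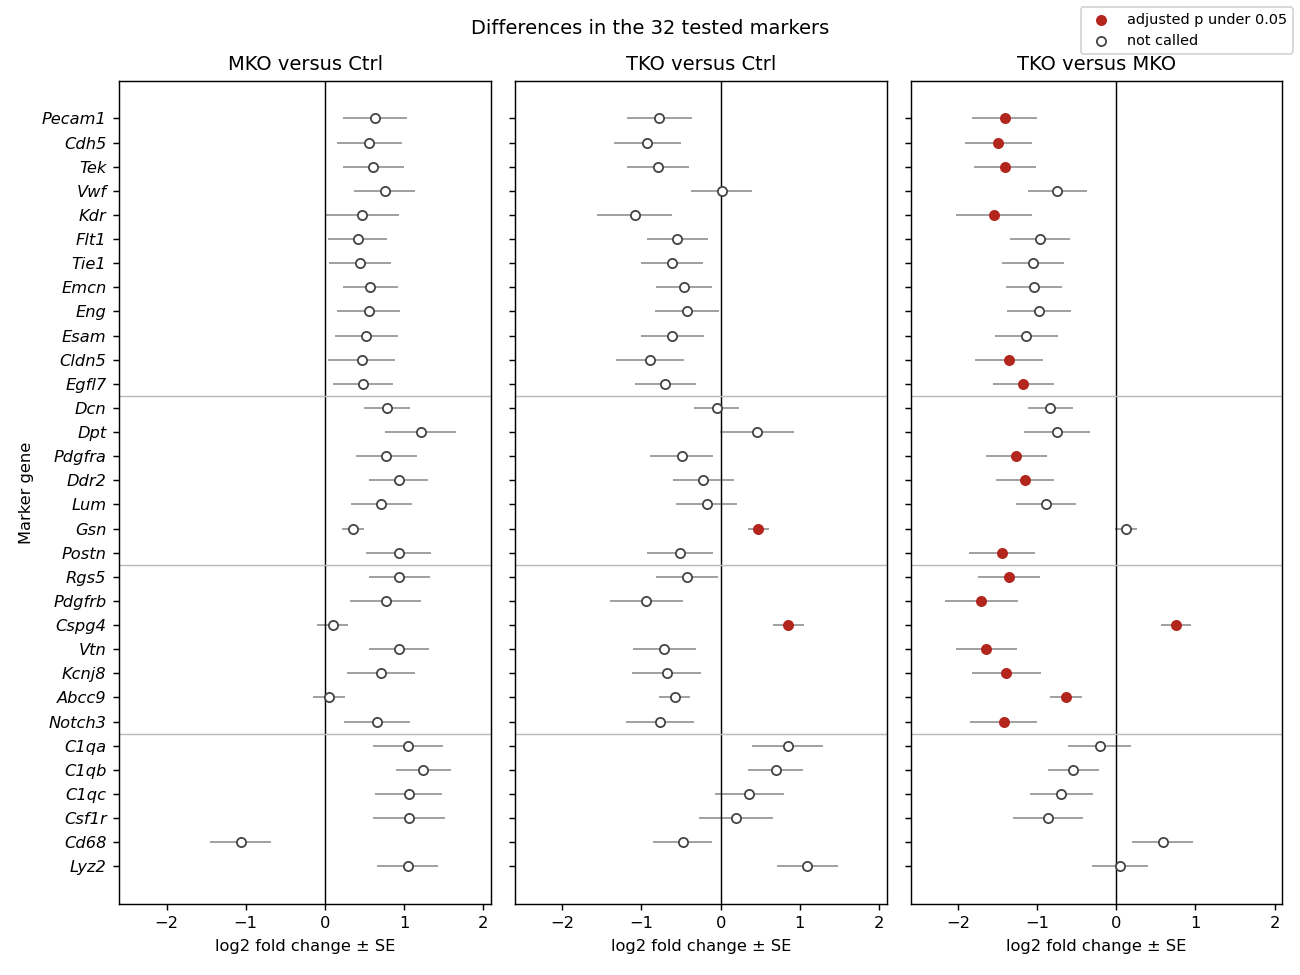
Log2 fold changes with their standard errors for the 32 tested markers in 3 comparisons, with classes separated by grey lines. Filled points passed an adjusted p under 0.05. In MKO against Ctrl 31 of 32 points lie to the right of 0 and none is filled; in TKO against MKO 28 of 32 lie to the left and 16 are filled.

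Endothelial markers were lowest in TKO and highest in MKO. Their summed level had a median of 480 CPM in Ctrl (range 142 to 1505), 788 in MKO (range 581 to 1226), 587 in DKO (range 221 to 779) and 339 in TKO (range 145 to 543). All 6 TKO libraries lay below all 6 MKO libraries, while Ctrl overlapped every group. In TKO against MKO, 6 of the 12 markers fell, and the median log2 ratio over the class was -1.16, against 0.00 over all genes. In MKO against Ctrl the class median was 0.54 with all 12 above 0 and none called. That value moved with the control libraries: it was 1.07 without Ctrl 2 and 0.32 without Ctrl 3. In TKO against Ctrl it was -0.66, and -0.13 without Ctrl 2.

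Pecam1 (chromosome 11, 106654218 to 106715281, mm10) encodes a junction adhesion molecule. It measured 18.5 to 194 CPM in Ctrl with a median of 58.7, and 78.6 to 166 in MKO with a median of 106. In DKO it measured 17.4 to 107 with a median of 76.1, and in TKO 18.3 to 66.5 with a median of 44.5. Every TKO library lay below every MKO library, and Ctrl overlapped every other group. The gene fell by 1.41 ± 0.41 (SE) on the log2 scale in TKO against MKO (adjusted p = 0.0247).

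Cdh5 (chromosome 8, 104101625 to 104144502), which encodes VE-cadherin of endothelial junctions, measured 50.7 to 118 CPM in MKO with a median of 68.0 and 11.6 to 39.8 in TKO with a median of 28.6. Ctrl spanned 10.4 to 134 with a median of 44.0, and DKO 11.8 to 71.6 with a median of 50.8. TKO lay wholly below MKO, and Cdh5 fell by 1.49 ± 0.42 on the log2 scale (adjusted p = 0.0212). Cldn5 (chromosome 16, 18776847 to 18778262), a tight junction claudin, measured 12.8 to 40.9 CPM in MKO and 4.00 to 16.4 in TKO, with medians of 21.3 and 8.55. Ctrl spanned 4.35 to 47.4 with a median of 10.5, and DKO 14.7 to 35.2 with a median of 20.4. TKO and MKO overlapped here, and Cldn5 fell by 1.36 ± 0.43 (adjusted p = 0.0376).

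The receptors of the vessel growth factors followed. Kdr (chromosome 5, 75933270 to 75978428) measured 33.1 to 368 CPM in Ctrl (median 118), 120 to 294 in MKO (median 189), 7.99 to 186 in DKO (median 140) and 32.8 to 96.3 in TKO (median 68.0). No TKO library reached the MKO range, and Kdr fell by 1.55 ± 0.48 on the log2 scale (adjusted p = 0.0329). Tek (chromosome 4, 94739300 to 94874939), the receptor of the angiopoietins, measured 10.9 to 91.2 CPM in Ctrl (median 29.5), 36.02 to 79.9 in MKO (median 57.7), 7.59 to 50.2 in DKO (median 39.6) and 10.7 to 35.0 in TKO (median 20.3). TKO again lay wholly below MKO, and Tek fell by 1.41 ± 0.39 (adjusted p = 0.0182).

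Egfl7 (chromosome 2, 26581056 to 26592682), a protein secreted by endothelium, measured 31.98 to 75.0 CPM in MKO and 7.84 to 30.6 in TKO, with medians of 39.6 and 20.3. Ctrl spanned 7.46 to 84.3 with a median of 25.2, and DKO 23.8 to 51.1 with a median of 35.8. TKO lay just below MKO without overlap, and Egfl7 fell by 1.18 ± 0.39 on the log2 scale (adjusted p = 0.0436), a call lost without 10 of the 24 libraries in turn. Esam, an adhesion molecule with the highest level per kilobase of the class, measured 9.20 to 131 CPM in Ctrl (median 35.4), 44.7 to 109 in MKO (median 60.2), 38.2 to 63.9 in DKO (median 47.6) and 13.2 to 54.7 in TKO (median 29.8). It had a log2 ratio of -1.14 ± 0.40 in TKO against MKO and did not pass (adjusted p = 0.0588). Flt1, Tie1, Emcn, Eng and Vwf were not called, with log2 ratios between -1.06 (Tie1) and -0.74 (Vwf). Eng shares 61 exonic bases with Fpgs on the opposite strand, and these reads cannot be told apart because the kit does not mark strand.

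**Figure D4:**
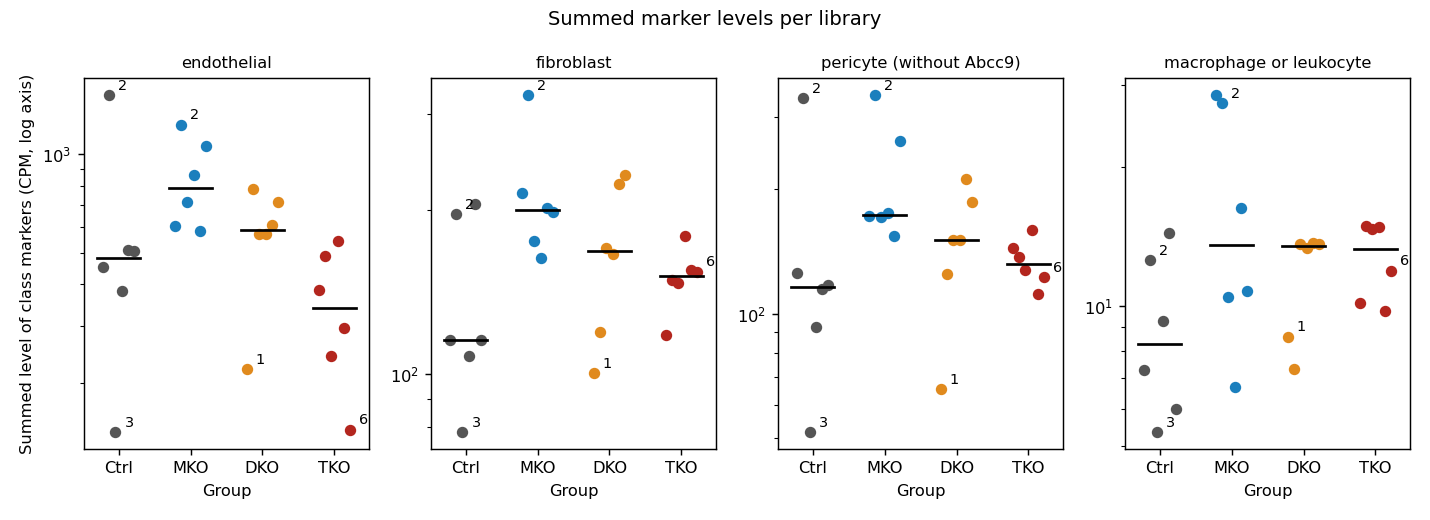
Summed CPM of each marker class per library, on log axes, with Abcc9 left out of the pericyte sum. Points are libraries, bars are group medians, and Ctrl 2, Ctrl 3, MKO 2, DKO 1 and TKO 6 are numbered. Endothelial TKO points lie below all MKO points, and the Ctrl points spread from 142 to 1505 CPM.

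Fibroblast markers split between Gsn and the rest. Gsn alone made up 46.9% of the class sum. Without it, the sum had a median of 55.5 CPM in Ctrl (range 24.6 to 133), 118 in MKO (range 90.9 to 224), 94.9 in DKO (range 41.3 to 149) and 59.3 in TKO (range 51.8 to 68.1). The 6 TKO libraries lay close together and wholly below MKO, and within the Ctrl range. In TKO against MKO, 3 of the 7 tested markers fell (Pdgfra, Ddr2 and Postn), with a class median of -0.89. In MKO against Ctrl the class median was 0.78, with all 7 above 0, 5 at an unadjusted p under 0.05 (6.2% of all genes) and none called.

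Postn (chromosome 3, 54361107 to 54391041) encodes periostin, a matrix protein of activated and developing fibroblasts. It measured 8.58 to 80.5 CPM in Ctrl (median 23.5), 38.1 to 113 in MKO (median 50.2), 6.39 to 60.8 in DKO (median 37.9) and 19.9 to 25.5 in TKO (median 22.2). TKO lay wholly below MKO and inside the Ctrl range, and Postn fell by 1.45 ± 0.42 on the log2 scale against MKO (adjusted p = 0.0229). Without MKO 2 the call was lost (adjusted p = 0.0706).

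Pdgfra (chromosome 5, 75152291 to 75198204), a platelet-derived growth factor receptor that defines cardiac fibroblasts, measured 1.43 to 7.43 CPM in Ctrl (median 1.98), 4.09 to 7.53 in MKO (median 5.37), 1.40 to 7.18 in DKO (median 4.97) and 0.788 to 3.42 in TKO (median 2.28), with TKO wholly below MKO. Against MKO it fell by 1.27 ± 0.39 (log2, adjusted p = 0.0317), a call lost without 5 of the 24 libraries in turn. Pdgfra reached the minimum count in all libraries of Ctrl, MKO and DKO, but not in all of TKO. Ddr2 (chromosome 1, 169972307 to 170088944), a collagen receptor, measured 1.42 to 7.43 CPM in Ctrl (median 1.90), 3.13 to 10.4 in MKO (median 4.17), 1.997 to 6.96 in DKO (median 3.43) and 1.58 to 2.87 in TKO (median 2.33). TKO lay wholly below MKO, and Ddr2 fell by 1.15 ± 0.37 (adjusted p = 0.0389). Ddr2 shares 90 exonic bases with 3110045C21Rik on the opposite strand.

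Of the matrix proteoglycans, Dcn (decorin) measured 8.33 to 44.6 CPM in Ctrl (median 24.2), 30.8 to 71.8 in MKO (median 38.9), 19.4 to 59.4 in DKO (median 35.9) and 20.1 to 30.4 in TKO (median 24.3). All TKO libraries were under the MKO range, yet the log2 ratio of -0.83 ± 0.28 did not pass (adjusted p = 0.0527). Lum (lumican), also without overlap between TKO and MKO, had a log2 ratio of -0.89 ± 0.38 (adjusted p = 0.122). Dpt (dermatopontin) had -0.75 and was not called. Dpt had a log2 ratio of 1.21 ± 0.45 in MKO and 1.25 ± 0.45 in DKO against Ctrl (adjusted p = 0.717 and 0.298), from 3 to 37 reads a library. Tcf21, a transcription factor of fibroblasts, was not tested, with 25 reads over the 6 Ctrl libraries, 63 in MKO, 48 in DKO and 32 in TKO.

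Gsn (chromosome 2, 35256359 to 35307902) was the only fibroblast marker called higher in TKO against Ctrl, where 2 of the 7 tested lay above 0. It measured 53.7 to 94.7 CPM in Ctrl with a median of 60.7, and 66.3 to 111 in TKO with a median of 91.0. MKO spanned 72.0 to 99.6 with a median of 84.0, and DKO 57.8 to 89.7 with a median of 73.0. TKO and Ctrl overlapped, with Ctrl 5 the high control. Gsn rose by 0.48 ± 0.14 on the log2 scale in TKO against Ctrl (adjusted p = 0.0196), a call lost without Ctrl 3 or without TKO 4 (adjusted p up to 0.0577). Over all 24 libraries its level ranged 2.06-fold, against 8.62-fold for Dcn and 17.6-fold for Postn.

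Pericyte markers had the lowest median log2 ratio of the 4 classes in TKO against MKO, with Cspg4 moving the other way. All 7 were called in that comparison: 6 fell, and Cspg4 rose. The class median was -1.39, and it was -1.16 without MKO 2. Abcc9 made up 73.5% of the class sum, and without it the sum had a median of 116 CPM in Ctrl (range 51.6 to 333), 174 in MKO (range 154 to 338), 151 in DKO (range 65.5 to 212) and 132 in TKO (range 112 to 159). TKO and MKO overlapped in this sum, which holds Cspg4. In MKO against Ctrl the class median was 0.71 with none called, and it was 1.38 without Ctrl 2 and 0.48 without Ctrl 3. In TKO against Ctrl it was -0.68, and -0.05 without Ctrl 2.

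Pdgfrb (chromosome 18, 61045150 to 61085067), the receptor through which endothelium recruits pericytes, measured 6.96 to 117 CPM in Ctrl (median 34.0), 44.8 to 127 in MKO (median 57.0), 7.79 to 67.8 in DKO (median 47.1) and 12.1 to 32.8 in TKO (median 24.4). The groups MKO and TKO did not overlap, and Pdgfrb fell by 1.71 ± 0.46 on the log2 scale (adjusted p = 0.016). Notch3 (chromosome 17, 32120893 to 32166852), the Notch receptor of mural cells, measured 5.72 to 50.7 CPM in Ctrl (median 11.9), 19.1 to 43.9 in MKO (median 22.3), 3.40 to 23.8 in DKO (median 16.97) and 5.001 to 15.7 in TKO (median 8.73). Each TKO library was under each MKO library, and Notch3 fell by 1.42 ± 0.42 (adjusted p = 0.0272).

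Vtn (chromosome 11, 78499120 to 78502325) encodes the adhesion protein vitronectin. It measured 1.24 to 17.9 CPM in Ctrl (median 4.99), 8.84 to 16.97 in MKO (median 11.7), 4.39 to 11.6 in DKO (median 8.54) and 2.17 to 7.84 in TKO (median 3.48). No TKO library was as high as any MKO library, and Vtn fell by 1.64 ± 0.39 on the log2 scale (adjusted p = 0.00643), the smallest adjusted p among the 32 tested markers in this comparison. Rgs5 (chromosome 1, 169655501 to 169693526), a regulator of G protein signalling, measured 3.48 to 50.7 CPM in Ctrl (median 12.4), 21.2 to 55.4 in MKO (median 29.0), 15.2 to 28.5 in DKO (median 21.6) and 7.002 to 20.5 in TKO (median 13.6). TKO lay just below MKO without overlap, and Rgs5 fell by 1.36 ± 0.39 (adjusted p = 0.022).

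Kcnj8 and Abcc9, neighbours on chromosome 6, encode the pore (Kir6.1) and the regulatory subunit of the potassium channel of mural cells, and they differed in spread. Kcnj8 (142564939 to 142571356) measured 2.49 to 40.1 CPM in Ctrl (median 10.3), 13.7 to 39.3 in MKO (median 17.3), 8.99 to 23.8 in DKO (median 15.5) and 3.25 to 15.5 in TKO (median 8.61). In TKO against MKO Kcnj8 fell by 1.39 ± 0.43 on the log2 scale (adjusted p = 0.0352), with overlap of the groups. Abcc9 (142587862 to 142702274) measured 423 to 703 CPM in Ctrl (median 490), 466 to 609 in MKO (median 564), 130 to 422 in DKO (median 388) and 265 to 510 in TKO (median 313). The 6 DKO libraries lay below all 6 Ctrl and all 6 MKO libraries, whereas TKO overlapped both through TKO 4.

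Abcc9 fell by 0.64 ± 0.20 on the log2 scale in TKO against MKO (adjusted p = 0.0372). Its log2 ratio was -0.58 ± 0.20 in TKO against Ctrl (adjusted p = 0.0537), -0.58 ± 0.20 in DKO against Ctrl (0.26) and -0.64 ± 0.20 in DKO against MKO (0.149). With 22 libraries the adjusted p in TKO against Ctrl was 0.00209. The authors' deposited tables list adjusted p-values of 0.016 for DKO against Ctrl, 0.00302 for TKO against Ctrl and 0.00011 for DKO against MKO, all with lower values. In the Ctrl libraries the ratio of Abcc9 to Kcnj8 reads spanned 11.4 to 170. Abcc9 stood at 2.05% of the median heart muscle marker per kilobase in the middle Ctrl library, above every other marker of the 36. It shares 158 exonic bases with 5330439B14Rik on the opposite strand.

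Cspg4 (chromosome 9, 56865104 to 56899870), which encodes the proteoglycan NG2 of the pericyte surface, rose in TKO against each of the other groups. It measured 30.4 to 55.8 CPM in Ctrl with a median of 41.3, and 39.1 to 55.7 in MKO with a median of 43.0. DKO spanned 25.8 to 61.1 with a median of 39.7, and TKO 47.7 to 91.9 with a median of 78.8. Of the TKO libraries 5 lay above every other library, and TKO 5 lay inside the other ranges. The gene rose by 0.86 ± 0.20 on the log2 scale against Ctrl (adjusted p = 0.00392), by 0.89 ± 0.20 against DKO (0.00606) and by 0.76 ± 0.20 against MKO (0.012). These 3 calls held without each of the 24 libraries in turn, with adjusted p up to 0.0312. In MKO against Ctrl its log2 ratio was 0.10 and in DKO against Ctrl -0.03, and neither was called. TKO 6, the lowest TKO library for every endothelial marker, had the highest Cspg4 level of all 24 libraries.

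**Figure D5:**
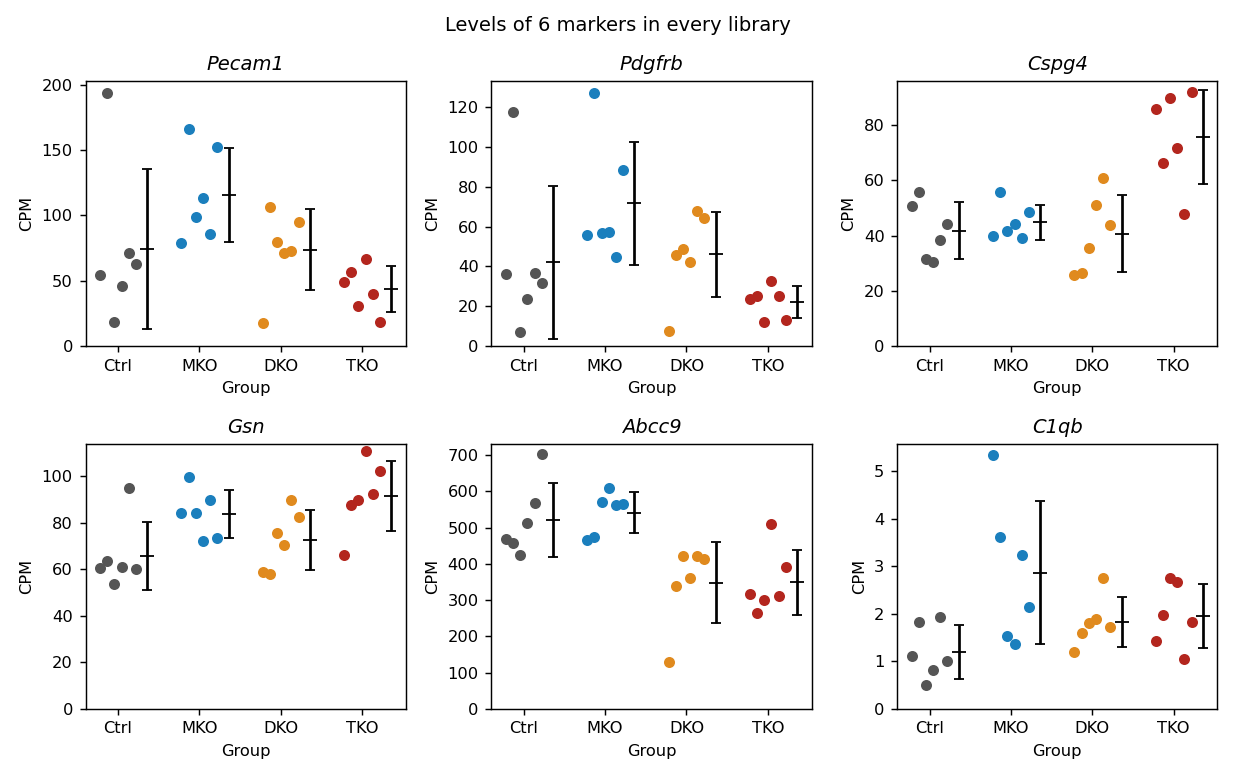
Levels in CPM of 6 markers in every library by group. Points are libraries, and the bar beside them gives the mean with the SD (n = 6). Pecam1 and Pdgfrb are spread widely in Ctrl and low in TKO, Cspg4 and Gsn are high in TKO, Abcc9 is lower in DKO and in 5 of 6 TKO libraries than in Ctrl, and C1qb stays under 6 CPM throughout.

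Macrophage and leukocyte markers were near the limit of detection, and 0 of the 6 tested were called in any of the 7 comparisons. At an unadjusted p under 0.05 there were 6 in MKO against Ctrl, where 6.2% of all genes were. In TKO against Ctrl there was 1 (27% of all genes), and in the interaction there were 2 (12.4% of all genes). DESeq2 called Lyz2 in TKO against Ctrl (log2 ratio 1.09, adjusted p = 0.0356). So did edgeR when 1 of Ctrl 2, MKO 6, DKO 1, TKO 1 or TKO 5 was left out at a time. Lyz2 reached the minimum count in all 6 libraries of MKO and of TKO, but not in all of Ctrl or DKO. Summed over the 9 markers the level was 5.35 to 14.3 CPM in Ctrl (median 8.29), 6.68 to 28.5 in MKO (median 13.6), 7.33 to 13.7 in DKO (median 13.5) and 9.76 to 14.9 in TKO (median 13.3). All groups overlapped. The class median log2 ratio was 1.06 in MKO, 0.56 in DKO and 0.53 in TKO against Ctrl, and -0.38 in TKO against MKO.

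C1qb (chromosome 4, 136880145 to 136886177), a chain of complement C1q, measured 0.497 to 1.93 CPM in Ctrl (median 1.06), 1.35 to 5.34 in MKO (median 2.69), 1.20 to 2.76 in DKO (median 1.75) and 1.05 to 2.76 in TKO (median 1.90). MKO 1 was the highest library and groups overlapped throughout. Its log2 ratio in MKO against Ctrl was 1.24 ± 0.35 (unadjusted p = 0.00143, edgeR adjusted p = 0.698). C1qa and C1qc, its neighbours on the chromosome and the other 2 chains of the protein, had 1.05 ± 0.44 and 1.06 ± 0.42 in that comparison. Their groups overlapped too.

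Lyz2 (chromosome 10, 117277541 to 117282272), the lysozyme of myeloid cells, measured 0.871 to 2.80 CPM in Ctrl (median 1.42), 1.30 to 5.86 in MKO (median 2.86), 0.999 to 3.67 in DKO (median 2.70) and 1.74 to 5.04 in TKO (median 3.63). Its log2 ratio in TKO against Ctrl was 1.10 ± 0.39 (adjusted p = 0.0583). Csf1r, the macrophage growth factor receptor, had 1.07 ± 0.46 in MKO against Ctrl (adjusted p = 0.767). Cd68, a lysosomal protein of macrophages, went the other way from its class, at -1.06 ± 0.39 in MKO against Ctrl (adjusted p = 0.717), with 5 to 23 reads a library. Ptprc (CD45, on all leukocytes) had 15 reads over the 6 Ctrl libraries, 37 in MKO, 32 in DKO and 26 in TKO. Tyrobp, a signalling adaptor, had 14, 25, 18 and 32, and Ctss, a lysosomal protease, had 17, 47, 25 and 33.

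Other genes of the same cell types were taken from further lists, drawn up like the marker list with earlier results known. Beside the counts below, TKO against MKO called 6.86% of all genes lower and 6.48% higher. TKO against Ctrl called 5.98% lower and 8.14% higher, and TKO against DKO 6.38% in either direction. Of 21 tested endothelial genes 7 fell in TKO against MKO and 0 rose, led by Cav1, the caveolar coat protein (-1.60 ± 0.41, adjusted p = 0.0118), Ecscr (-1.30), Mmrn2 (-1.34) and Rasip1 (-1.20). Their median was -1.08. Of 14 further pericyte genes 8 fell and 1 rose in TKO against MKO, with a median of -1.29. Gucy1a3, a subunit of the nitric oxide receptor (-1.72 ± 0.42, adjusted p = 0.00787), and Steap4 (-1.75) fell, and Art3 rose by 1.04 ± 0.28 (adjusted p = 0.0154). Art3 also rose by 1.04 against Ctrl, where Ednra, an endothelin receptor, fell by 0.73. Per kilobase, Art3 had a mean of 328 CPM over the 24 libraries, against 23.6 for Ednra, 6.17 for Steap4 and 2.11 for Gucy1a3. It was highest in DKO 1, at 1300 CPM. Which cells gave the Art3 reads was not tested.

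Endocardial and arterial genes included 3 of 9 that rose in TKO against Ctrl: Npr3, a natriuretic peptide clearance receptor (1.67 ± 0.41, adjusted p = 0.00668), Gja5, the gap junction protein connexin 40 (1.39 ± 0.44, 0.0347) and Cgnl1 (0.62 ± 0.20, 0.0364). In TKO against MKO, Sox7 fell by 1.45. The lymphatic receptor gene Flt4 fell by 1.30 in TKO against MKO (adjusted p = 0.0319), 1 of 4 lymphatic genes tested. Lcp1, a leukocyte actin bundler, fell by 1.21 in TKO against MKO (adjusted p = 0.0197), 1 of 8 myeloid genes tested of 25 listed. Over all genes 13.3% were called there in either direction, so 1 such gene in a short list is no result about that list.

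Of 22 tested further fibroblast genes, 3 rose and 1 fell in TKO against Ctrl. Fbln1, a matrix fibulin, rose by 1.89 ± 0.23 (adjusted p = 3.45e-06), from 45.9 to 70.7 CPM in Ctrl to 135 to 360 in TKO without overlap. Vcan, the proteoglycan versican, rose by 1.54 and Htra3, a secreted protease, by 0.89, and Smoc2 fell by 1.18. In TKO against MKO, 5 fell, among them Cygb (-1.77), Cd248 (-1.59) and Smoc2 (-0.95), and Fbln1 rose by 1.55. Fbln1 also rose by 1.02 in TKO against DKO. Of 8 tested smooth muscle genes, Acta2, smooth muscle actin and also a target of serum response factor, fell by 2.17 in DKO and by 2.76 in TKO against Ctrl, by 2.24 in TKO against MKO and by 1.64 in DKO against MKO. Mylk and Itga8 fell in TKO against MKO. Neither Myh11 nor Tagln was called in any comparison. Per kilobase, the mean over 24 libraries was 225 CPM for Acta2, 144 for Smtn and 176 for Pcp4l1, against 1.10 for Myh11 and 1.64 for Tagln. Which cells gave the Acta2 reads was not tested. No Schwann cell (2 tested), epicardial (6) or erythroid (1) gene was called in any comparison, with lowest adjusted p-values of 0.34, 0.0686 and 0.122.

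The ligands of the marker receptors and related factors, 19 tested, moved in both directions. Tgfb2, a transforming growth factor, measured 8.87 to 15.6 CPM in Ctrl and 28.9 to 49.9 in TKO without overlap, and rose by 1.65 ± 0.15 (adjusted p = 3.31e-08). Tgfb3 rose by 1.21 ± 0.20 in that comparison. Tgfb2 was also the only one of the 19 called by edgeR in the interaction, at a higher value (adjusted p = 0.00392). In TKO against MKO 7 fell, among them Pdgfb, the endothelial ligand of Pdgfrb, by 1.49 ± 0.36 (adjusted p = 0.00758), and Tgfb1 by 0.99, and Tgfb2 and Tgfb3 rose. In TKO against DKO, Tgfb2 rose by 1.28 and Tgfb3 by 0.80, and Dll1, a Notch ligand, fell by 1.09.

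Heart muscle markers moved alongside these comparisons. Of 14, 6 fell in TKO against Ctrl, among them Ckm by 1.62, Tnnc1 by 0.90, Myl3 by 0.76, Ttn by 0.80 and Myh6 by 0.63. In TKO against MKO 2 fell (Ckm and Atp2a2) and Csrp3 rose. Among those called in TKO against DKO, Ckm fell by 1.07 and Myl3 by 0.84, and Mybpc3 rose by 0.48 and Actn2 by 0.31. Levels in CPM are shares of a library, and the part that these changes have in the marker levels was not tested. Under TMM, RLE scaling and DESeq2 the median log2 ratio of all genes stayed within 0.1 of 0, and 0 of the called markers changed sign. These scalings set the log2 ratio of a typical gene near 0 by design, so these values do not test that part.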

How the data were processed

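Polyadenylated RNA of FACS-purified cardiomyocytes was amplified with a SMART-Seq v4 kit and tagmented with Nextera XT, as the labels' protocols state. The submitters' processing notes name STAR, featureCounts, DESeq2 and mm10, without versions. The authors deposited whole-number read counts per gene for 24 libraries, totalling 5830185 to 17184517 counts a library. They also deposited 6 tables of comparisons that hold log2 fold changes with errors, p-values and adjusted p-values, per the file headers. The sources used here do not say how multi-mapping reads were treated.

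Tests used edgeR 4.0.16 under R 4.3.3 on the counts (quasi-likelihood test, two-sided, TMM scaling, 24 libraries in 1 fit, filterByExpr with a minimum count of 10, Benjamini-Hochberg over 12281 genes). Adjusted p-values come from this test unless another is named. DESeq2 1.42.0, limma 3.58.1 (voom with quality weights), other scalings, filters and library sets were alternatives. CPM used the effective library size, and lengths were the exonic lengths of the deposited table. The tests were tried on simulated data. Of 36 markers, 24 of the 32 tested reached the minimum in all 24 libraries, so the tested ones are not all markers. Of 198 other list entries, 192 matched the table by symbol.

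The marker genes, the other lists and the 22-library set were chosen with earlier results of these data known. Values in every group are given for markers called in any comparison, and in each class for the 2 with the highest level per kilobase and the 2 with the smallest unadjusted p. Of the other lists, at most 4 called genes a comparison are named, in order of adjusted p, with Myh6 named besides. One gene that this rule names is not reported here, though counts and medians of its list include it. Lum, Flt1 and others outside this rule were named after their values were seen.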

Additional observations from a re-analysis of the deposited data

Results flagged for a closer look

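In each group of 6 libraries, the highest and lowest value of every tested marker and of the 4 class sums was compared with its neighbour. A value was listed when its gap to the nearest library, as a share of the group's range on the log2 scale, passed Dixon's critical value for 6 values. Of 144 groups of values 18 were listed, and chance lists about 1 in 20, or 7.2.

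Of these, 12 were low values of DKO 1. For the endothelial markers they were 17.4 CPM for Pecam1, 11.8 for Cdh5, 7.59 for Tek, 3.60 for Vwf, 7.99 for Kdr, 31.2 for Tie1 and 21.8 for Eng. The others were 6.39 CPM for Postn, 7.79 for Pdgfrb and 130.2 for Abcc9, and sums of 221 CPM for the endothelial and 196 CPM for the pericyte markers. DKO 1 was also the shallowest library and the library with the strongest relation of level to gene length.

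High values were 1.73 CPM for Dpt and 94.7 CPM for Gsn in Ctrl 5, and 7.43 CPM for Ddr2 and 50.7 CPM for Notch3 in Ctrl 2. Low values were 4.41 CPM for Lum in TKO 1 and 0.674 CPM for C1qc in DKO 2, the last from few reads.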

How the results depend on the processing

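The count of called markers in TKO against MKO stayed between 16 and 22 under the 8 alternatives of scaling, filter, tool, block and library set. It ranged from 6 to 22 when each of the 24 libraries was left out in turn. The 16 markers called there, and Gsn and Cspg4 in TKO against Ctrl, passed under all 8 alternatives. Of 7103 recomputed marker values 0 reversed a call, but only values for the 19 called pairs of marker and comparison could do so. A call was lost in 70 of the recomputed values and gained in 138. TKO against Ctrl gave 2 markers, and 4 with DESeq2 or with only the 2 groups in the fit, 8 with 22 libraries and 2 to 5 with single libraries left out. TKO against DKO gave 1, and 2 with DESeq2, 9 with limma voom, 6 with 22 libraries and 1 to 3 with single libraries left out. DKO against Ctrl and DKO against MKO gave 0, and 1 each with limma voom. The interaction gave 0, and 2 with DESeq2, 19 with limma voom, 1 with 22 libraries and 0 to 18 with single libraries left out. The share of all genes called also moved with the setting. It is given above for part of these settings only, so these counts alone do not describe the markers. The cause of these shifts was not tested.

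With the replicate block, TKO against DKO gave 2, where 908 of all 12281 genes were called, against 784 without the block. The interaction gave 3, where 175 of all genes were called, against 57. TKO against MKO gave 20. The numbers do not pair the libraries: over 36 pairs of equal number, deviations correlated between -0.251 and 0.686 with a median of 0.0787, and 5 of 24 libraries correlated best with their own number. Depth limits the macrophage or leukocyte markers, and 3 of the 9 were not tested.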
